A study of Mus musculus with 6 samples.

Results

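The WNT pathway set held 43 genes out of 23238 gene symbols counted: 11 WNT ligands, 2 ligand processing genes, 12 Frizzled and LRP receptors, 4 genes of R-spondin reception and receptor turnover, 6 secreted antagonists, 4 TCF/LEF transcription factors and 4 target genes. The members were chosen by gene symbol from knowledge of the pathway, with earlier results of these data known. Their RNA was measured by sequencing transcript 3′ ends in 6 libraries. The cells were embryonic stem cells of mouse strain 129/Ola, with 3 libraries from a stable line carrying EWS-OCT4A fused to GFP and 3 from a stable line carrying EGFP alone. EWS-OCT4A joins the Ewing sarcoma protein EWS to isoform A of the pluripotency factor OCT-4. Both lines were Niwa cells grown with LIF, and both received doxycycline at 1 µg/ml, which lowers endogenous OCT-4 in these cells. No library was taken without doxycycline, so every change given here is the EWS-OCT4 line against the EGFP line, and which of the lines moved from its untreated state cannot be told. The labels do not say whether a line is 1 clone, which promoter drives its transgene, or whether its 3 libraries are separate cultures. The p-values therefore reflect only the scatter among these libraries, and that scatter may be technical.

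WNT proteins are secreted lipid-modified ligands. They bind Frizzled receptors together with LRP5 or LRP6, which stops the destruction complex from degrading β-catenin. β-catenin then binds TCF/LEF factors on DNA and turns their target genes on. In mouse embryonic stem cells the pathway is known for supporting self-renewal, where TCF7L1 acts mainly as a repressor of pluripotency genes, and several WNT ligands also act in the development of the placenta.

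Library totals were 10978025 to 12281444 counts in the EWS-OCT4 line and 13239383 to 14935887 in the EGFP line, so that 1 count stood for 0.0670 to 0.0911 CPM (a count relative to its library's total) before TMM scaling. Levels below are CPM after TMM scaling, whose factors were 0.971 to 1.03. The ribosomal RNA precursor Rn45s took 7.36% to 10.5% of the counts in EWS-OCT4 libraries and 5.85% to 6.44% in EGFP libraries. Replicate 3 differed from replicates 1 and 2 within each line: the chi-square divided by its degrees of freedom was 32.0 and 32.3 in the EWS-OCT4 line and 23.7 and 25.0 in the EGFP line. Between replicates 1 and 2 it was 4.21 in the EWS-OCT4 line and 3.96 in the EGFP line. Pou5f1, which encodes OCT-4, had 18, 21 and 36 counts in EWS-OCT4 libraries and 5, 13 and 10 in EGFP libraries, and tags of the endogenous gene and of the transgene cannot be told apart in these counts. Of 12 pluripotency markers all 12 were higher in the EWS-OCT4 line, with a summed level of 5860 to 6434 CPM in EWS-OCT4 libraries and 462 to 589 CPM in EGFP libraries. Of 12 trophoblast markers all 12 were lower, with a sum of 257 to 288 CPM in EWS-OCT4 libraries, where Plac1 had no count, and 5537 to 6252 CPM in EGFP libraries. Tfap2c alone gave most of the EWS-OCT4 sum, at 242, 227 and 251 CPM. The label of both lines is embryonic stem cell, but in the EGFP libraries the trophoblast sum lay far above the pluripotency sum. Markers of primitive endoderm summed to 56.6 to 94.4 CPM in EWS-OCT4 libraries and 109 to 131 CPM in EGFP libraries. Of these 10 markers 6 were tested, with 2 higher and 3 lower. The sums came from different genes. Lama1 gave most of the EWS-OCT4 sum, at 47.8, 56.6 and 87.1 CPM. Dab2 (72.3, 82.4 and 83.5 CPM) and Gata6 (26.1, 30.7 and 36.7 CPM) gave most of the EGFP sum. Fibroblast markers summed to 25.3 to 34.0 CPM in EWS-OCT4 libraries, where Postn had no count, and 15.5 to 17.9 CPM in EGFP libraries. Here too 6 of 10 were tested, with 2 higher and 1 lower. Thy1 gave the largest part of the EWS-OCT4 sum, at 16.2, 18.8 and 18.6 CPM. Postn gave the largest part of the EGFP sum, at 9.54, 9.74 and 8.19 CPM. The collagen genes Col1a1, Col1a2 and Col3a1 overlapped between the lines and were not called. The marker lists were chosen with earlier results of these data known, so their counts are not independent evidence of cell type. Of all tested genes, 33.3% were higher and 34.1% lower. The called markers in these lists differed between the lines, as did the called genes below. The part of these markers in the results was not tested. Fewer cells of a type and less RNA per cell cannot be told apart in such bulk libraries.

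Members of the pathway moved in both directions, and each role except ligands and targets held genes that were higher and genes that were lower in the EWS-OCT4 line. Of the 43 members, 32 passed the filter on low counts. Of these, 10 were higher, 8 were lower and 14 did not pass an adjusted p of 0.05 in edgeR's quasi-likelihood test. The 18 called members are 56.2% of those tested, whereas 67.4% of all 13467 tested genes were called (33.3% higher and 34.1% lower), so calls were no more frequent among members than among all genes. The counts by role given below are to be read beside these same shares. A change of at least 2-fold was called in 17 members (53.1%), against 45.4% of all tested genes. The median log2 fold change over tested members was 0.13, and over all tested genes it was -0.00418. The median size of the change, whatever its direction, was 1.46 on the log2 scale for members and 0.93 for all tested genes. The libraries of the lines did not overlap for 21 tested members (65.6%), against 72.7% of all tested genes. With the libraries numbered 1 and 2 alone, all 18 calls were kept, and of 34 tested members 11 were higher and 11 lower. In that setting 75.6% of all 13538 tested genes were called, so more calls were made in the whole table too.

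**Figure D1:**
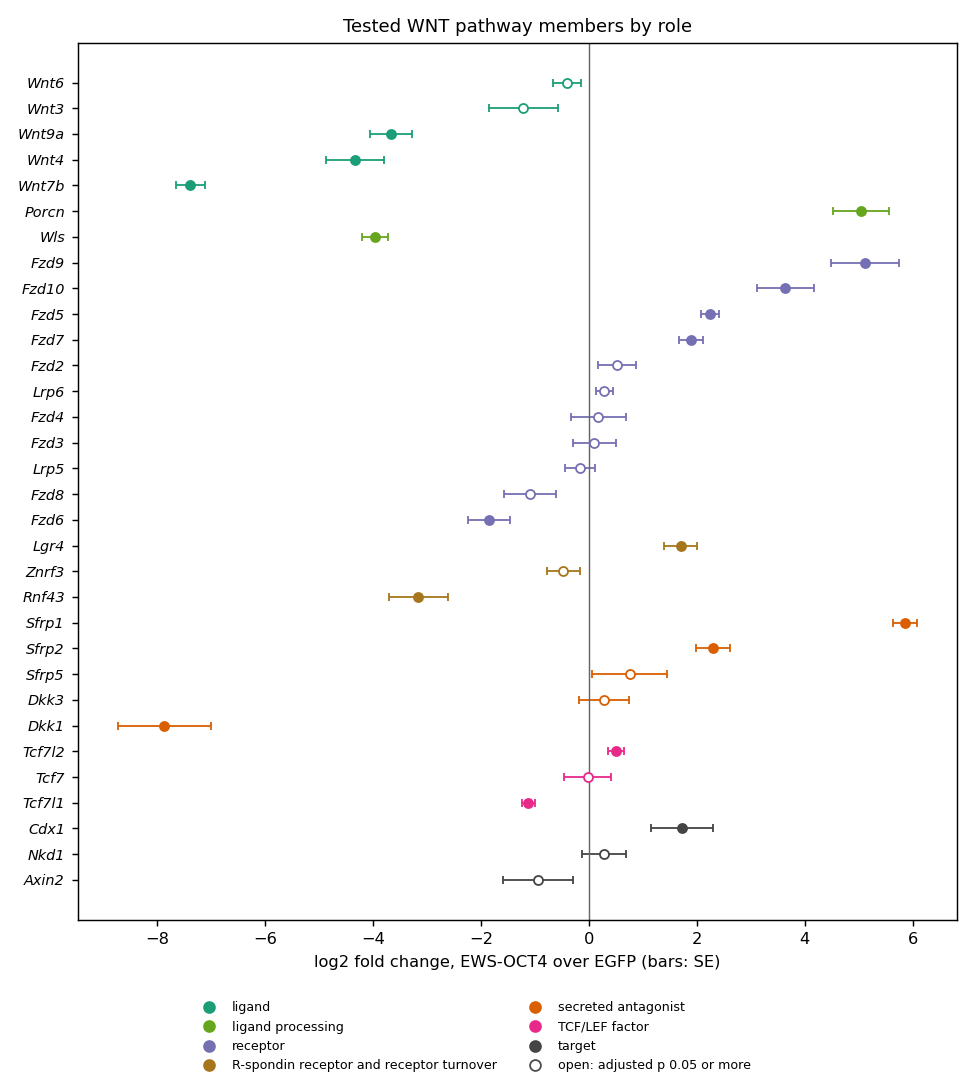
Log2 fold change of the 32 tested WNT pathway members, EWS-OCT4 over EGFP (horizontal axis), by role (colour), with bars for the standard error and filled points for adjusted p under 0.05. Sfrp1 (5.86) lies farthest to the right; Wnt7b (-7.39) and Dkk1 (-7.88, fitted on a single EWS-OCT4 count) lie farthest to the left.

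Promoter sequences are shown for the 2 members whose start region held the octamer, the site that OCT factors bind, and for the 2 members with a core site of TCF/LEF factors that are known as genes induced by WNT signalling. RefSeq promoters on build GRCm38.p6, from 250 bases before to 50 bases after a gene's start, were found for 28 of the 43 members (37 promoters). The octamer was searched as ATTTGCAT and the TCF/LEF core as CTTTGAA or CTTTGAT, each on both strands. Capitals mark the match, which reads on the strand shown in all 4 promoters.
Lgr4 (chr2:109917397-109917696, plus strand): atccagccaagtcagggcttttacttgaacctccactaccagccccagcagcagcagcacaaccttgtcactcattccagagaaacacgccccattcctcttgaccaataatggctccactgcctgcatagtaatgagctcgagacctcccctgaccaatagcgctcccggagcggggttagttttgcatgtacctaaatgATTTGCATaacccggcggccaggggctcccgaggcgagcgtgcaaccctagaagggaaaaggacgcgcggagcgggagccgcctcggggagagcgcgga
Sfrp2 (chr3:83766071-83766370, plus strand): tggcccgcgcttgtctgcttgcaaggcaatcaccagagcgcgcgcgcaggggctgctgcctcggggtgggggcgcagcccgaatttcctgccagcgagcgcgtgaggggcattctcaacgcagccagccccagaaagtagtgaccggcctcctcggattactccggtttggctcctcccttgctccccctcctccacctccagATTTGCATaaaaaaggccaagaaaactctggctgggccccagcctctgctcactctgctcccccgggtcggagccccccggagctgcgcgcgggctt
Dkk1 (chr19:30549447-30549746, minus strand): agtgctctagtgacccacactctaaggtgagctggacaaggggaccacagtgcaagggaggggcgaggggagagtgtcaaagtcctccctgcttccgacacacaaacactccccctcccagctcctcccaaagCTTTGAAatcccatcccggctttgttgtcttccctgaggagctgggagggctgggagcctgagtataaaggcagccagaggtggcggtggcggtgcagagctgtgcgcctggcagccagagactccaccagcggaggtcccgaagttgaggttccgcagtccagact
Sp5 (chr2:70474673-70474972, plus strand): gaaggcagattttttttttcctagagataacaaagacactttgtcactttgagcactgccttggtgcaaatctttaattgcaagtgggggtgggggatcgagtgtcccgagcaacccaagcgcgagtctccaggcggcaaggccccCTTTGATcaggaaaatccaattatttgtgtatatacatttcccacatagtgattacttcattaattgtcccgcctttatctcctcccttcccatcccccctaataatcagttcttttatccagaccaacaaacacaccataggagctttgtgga
The octamers of Lgr4, an R-spondin receptor, and Sfrp2, a secreted WNT antagonist, began 49 and 47 bases upstream of the start site. Both genes were higher in the EWS-OCT4 line, as were 33.3% of all tested genes. Fzd5, Fzd7, Fzd9, Fzd10 and Tcf7l2 were also higher, with no octamer in their promoters. The higher members Sfrp1, Porcn and Cdx1 had no promoter to search. The octamer was in 2 of the 37 member promoters (5.41%) and in 570 of all 32851 promoters (1.74%). A TCF/LEF core was in 4 of the 37 (10.81%), those of Dkk1, Sp5, Wnt5b and Wnt11, and in 8.65% of all promoters. It began 117 bases upstream of the start of Dkk1 and 104 bases upstream of that of Sp5. The matching promoters of Wnt5b and Wnt11, which are ligands, are not shown. These matches are descriptions of the letters in the window and were not tested against expression. Each of the 4 promoters shown held 1 match.

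Of 11 WNT ligands, 5 were tested: Wnt7b, Wnt9a and Wnt4 were lower in the EWS-OCT4 line, and Wnt6 and Wnt3 did not pass. Wnt7b, a ligand that the mouse placenta needs for its chorion to fuse with the allantois, had 4, 3 and 5 counts in the EWS-OCT4 libraries and 931, 926 and 778 in the EGFP libraries. These are 0.369, 0.277 and 0.419 CPM in EWS-OCT4 libraries, against 69.4, 64.9 and 50.5 CPM in EGFP libraries. The groups lie far apart, with a log2 fold change of -7.39 (SE 0.27, adjusted p = 2.4e-08), or 168-fold lower. Its locus is chromosome 15, 85535437 to 85582473, minus strand (GENCODE M21, GRCm38), and an exon of the opposite-strand gene AU022754, which had 0 counts in EWS-OCT4 libraries and 0 to 2 in EGFP libraries, overlaps it.

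Wnt9a, a ligand of joint formation, stood at 0.829, 2.03 and 0.839 CPM in EWS-OCT4 libraries and at 17.1, 18.8 and 11.1 CPM in EGFP libraries. No EWS-OCT4 library came near the EGFP range, and the fold change was -3.67 on the log2 scale (SE 0.39, adjusted p = 1.9e-05). Wnt4, a ligand of kidney and female reproductive tract development, stood at 0.184, 0.185 and 0.587 CPM in EWS-OCT4 libraries, against 9.54, 4.69 and 6.04 CPM in EGFP libraries. Its log2 fold change was -4.34 (SE 0.53, adjusted p = 5.3e-05), and -5.12 without EWS-OCT4 replicate 3, the highest library of its line. Wnt6 was tested and not called, at 6.81 ± 0.663 CPM in the EWS-OCT4 line and 9.05 ± 2.55 CPM in the EGFP line (SD, n = 3 each; log2 fold change -0.41, SE 0.27, adjusted p = 0.198), although its libraries did not overlap. Wnt3, a ligand known for its part in primitive streak formation, was at 0.634 ± 0.557 CPM in the EWS-OCT4 line and 1.51 ± 0.458 CPM in the EGFP line (adjusted p = 0.115). Without EWS-OCT4 replicate 3 it was called lower, at -2.20 on the log2 scale (adjusted p = 0.0237, within a range of 0.0237 to 0.325 over 15 alternatives).

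The remaining 6 ligands did not pass the filter and carry no test. Wnt7a, a close relative of Wnt7b, had no count in any EWS-OCT4 library and 11, 20 and 3 counts in the EGFP libraries. Against a floor of 3 counts per library it was at least 3.00-fold lower, or at least 1.89-fold lower without EGFP replicate 2. Wnt3a, which is widely added to stem cell cultures as a WNT signal, had no count in EWS-OCT4 libraries and 0, 5 and 4 counts in EGFP libraries, a sum of 9 that equals 3 per library. Wnt10a, known for tooth and hair development, was the ligand whose EWS-OCT4 libraries all lay above the EGFP ones, at 6, 13 and 17 counts against 0, 4 and 3. Wnt5a, Wnt5b and Wnt11, ligands mostly linked to β-catenin-independent signalling, overlapped between the lines at 1 to 9 counts per library.

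The 2 genes that prepare WNT proteins for secretion moved in opposite directions. Porcn encodes the acyltransferase of the endoplasmic reticulum that attaches the lipid to WNT proteins. It stood at 18.5, 17.3 and 23.8 CPM in EWS-OCT4 libraries, against 0.298, 0.140 and 1.30 CPM in EGFP libraries. All EWS-OCT4 libraries lay above all EGFP ones, with a log2 fold change of 5.04 (SE 0.52, adjusted p = 1.5e-05), which was 6.45 without EGFP replicate 3, the highest library of that line. Wls encodes the carrier that takes lipid-bearing WNT proteins to the cell surface. It stood at 1.93, 1.20 and 1.51 CPM in EWS-OCT4 libraries, against 23.2, 22.8 and 27.0 CPM in EGFP libraries. It was 15.6-fold lower, a log2 fold change of -3.97 (SE 0.25, adjusted p = 5.1e-07). Porcn lies on chromosome X (8193848 to 8206525, minus strand) and Wls on chromosome 3 (159839672 to 159938664, plus strand).

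**Figure D2:**
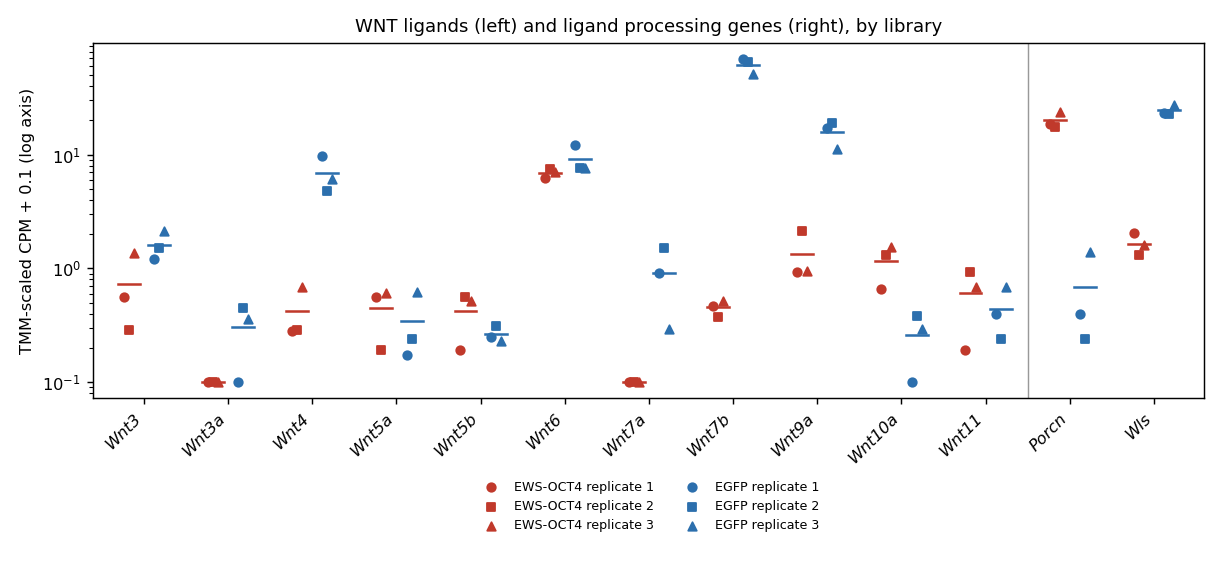
Level of each WNT ligand and ligand processing gene in TMM-scaled CPM plus 0.1 (vertical log axis) in the 3 EWS-OCT4 libraries (red, left) and the 3 EGFP libraries (blue, right); marker shapes give the replicate number and lines the mean. Wnt7b, Wnt9a, Wnt4 and Wls are lower and Porcn is higher in the EWS-OCT4 line without overlap between the lines.

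Frizzled genes were mixed, with 4 of them higher, 1 lower and the LRP co-receptors not called. Of 12 receptor genes, 11 were tested and 6 did not pass, where 67.4% of all tested genes were called. Frizzleds are the seven-pass receptors that bind WNT through a cysteine-rich outer domain. Fzd5, needed in the mouse for blood vessels of the yolk sac and placenta, stood at 121, 129 and 88.9 CPM in EWS-OCT4 libraries and at 23.5, 25.7 and 22.7 CPM in EGFP libraries. It was 4.71-fold higher (log2 fold change 2.24, SE 0.17, adjusted p = 1.8e-06), and its lowest EWS-OCT4 library, number 3, was still well above every EGFP library. Fzd7, a Frizzled known from human pluripotent stem cells, stood at 66.1, 73.8 and 40.4 CPM in EWS-OCT4 libraries, against 16.2, 15.9 and 16.5 CPM in EGFP libraries. It was 3.70-fold higher (log2 fold change 1.89, SE 0.22, adjusted p = 3.5e-05), again with replicate 3 lowest in the EWS-OCT4 line and no overlap.

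Fzd10 and Fzd9 were also higher in the EWS-OCT4 line. Fzd10 stood at 17.4, 20.3 and 9.73 CPM in EWS-OCT4 libraries, against 0.223, 1.75 and 1.75 CPM in EGFP libraries, a log2 fold change of 3.64 (SE 0.53, adjusted p = 0.00017). Fzd9 had 39, 50 and 57 counts in EWS-OCT4 libraries and 2, 0 and 3 in EGFP libraries, a log2 fold change of 5.11 (SE 0.64, adjusted p = 5.6e-05), or 5.71 without EGFP replicate 3. Fzd6, a Frizzled known for planar polarity in the mouse, was the called receptor that was lower. It stood at 3.87, 1.94 and 1.51 CPM in EWS-OCT4 libraries, against 8.12, 11.1 and 7.21 CPM in EGFP libraries, without overlap (log2 fold change -1.85, SE 0.38, adjusted p = 0.0017). Fzd1 was not tested, with 1 count in each EWS-OCT4 library and 8, 10 and 8 in the EGFP libraries, a depth-scaled ratio of 6.76 in favour of the EGFP line (exact 95% interval 2.07 to 34.9, for counting error alone).

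The remaining receptors did not pass the test. Lrp6, a co-receptor that the destruction complex is drawn to when WNT binds, stood at 49.5, 48.3 and 50.8 CPM in EWS-OCT4 libraries, against 42.7, 45.4 and 34.0 CPM in EGFP libraries (log2 fold change 0.28, SE 0.15, adjusted p = 0.117). Its close relative Lrp5 stood at 21.7, 24.2 and 10.5 CPM in EWS-OCT4 libraries and 23.6, 20.2 and 19.5 CPM in EGFP libraries (log2 fold change -0.17, SE 0.28, adjusted p = 0.60). The Lrp6 groups lie close together without overlap, and those of Lrp5 overlap, with EWS-OCT4 replicate 3 the lowest library. Fzd8 was at 1.67 ± 0.810 CPM in the EWS-OCT4 line and 3.55 ± 1.27 CPM in the EGFP line (SD, n = 3 each; adjusted p = 0.0685). Fzd2 was at 10.8 ± 4.24 CPM in the EWS-OCT4 line and 7.53 ± 2.22 CPM in the EGFP line (adjusted p = 0.209), and it was called higher without EWS-OCT4 replicate 3, at 0.81 on the log2 scale (adjusted p = 0.0304, within a range of 0.0173 to 0.565 over 15 alternatives). Fzd3 and Fzd4 had log2 fold changes of 0.09 (SE 0.40) and 0.17 (SE 0.51), and both signs turned when 1 EGFP library was left out.

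Genes that set how many Frizzleds stay on the cell surface also split. Lgr4, a receptor for R-spondins, which protect Frizzleds from removal, stood at 36.8, 32.2 and 16.5 CPM in EWS-OCT4 libraries, against 9.83, 9.95 and 6.56 CPM in EGFP libraries. It was 3.24-fold higher without overlap (log2 fold change 1.70, SE 0.30, adjusted p = 0.00065), with replicate 3 the lowest library in each line. Rnf43, a ubiquitin ligase that removes Frizzleds, stood at 0.553, 0.277 and 0.335 CPM in EWS-OCT4 libraries, against 4.25, 4.55 and 1.88 CPM in EGFP libraries (log2 fold change -3.17, SE 0.55, adjusted p = 0.00054). Its relative Znrf3 was not called, at 9.02 ± 3.53 CPM in the EWS-OCT4 line and 12.5 ± 1.86 CPM in the EGFP line (SD, n = 3 each; log2 fold change -0.48, SE 0.30, adjusted p = 0.185). Lgr5, known as a marker of intestinal stem cells, had 1 to 8 counts per library in either line and was not tested.

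**Figure D3:**
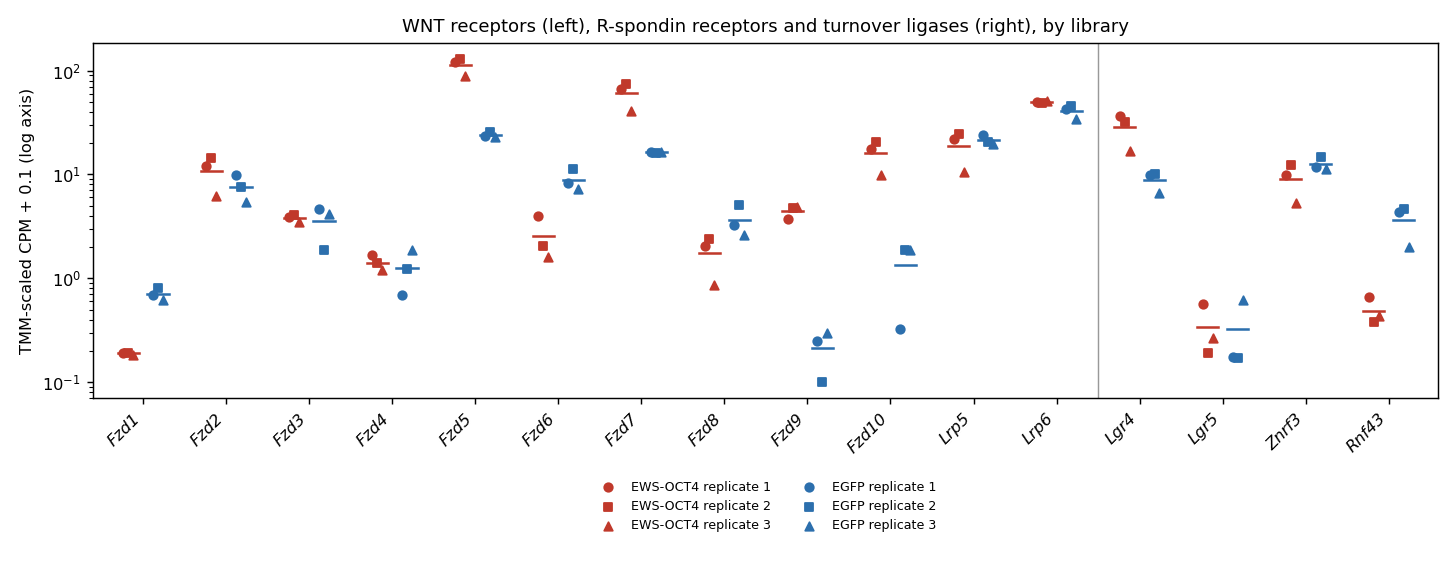
Level of each receptor, R-spondin receptor and turnover ligase gene in TMM-scaled CPM plus 0.1 (vertical log axis) in EWS-OCT4 libraries (red, left) and EGFP libraries (blue, right), with marker shapes for replicate numbers and lines for means. Fzd5, Fzd7, Fzd9, Fzd10 and Lgr4 are higher and Fzd6 and Rnf43 lower in the EWS-OCT4 line without overlap.

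Secreted antagonists moved in both directions, with 2 of 5 tested members higher, 1 lower and 2 not called. Of all tested genes, 33.3% were higher and 34.1% lower, so such a split is not particular to this role. Sfrp1, a soluble protein with a Frizzled-like domain that binds WNT, stood at 344, 335 and 374 CPM in EWS-OCT4 libraries and 7.23, 7.08 and 3.90 CPM in EGFP libraries. It was 58.1-fold higher (log2 fold change 5.86, SE 0.23, adjusted p = 3.6e-08), and the values of each line lie close together. Sfrp2, of the same family, stood at 16.8, 17.7 and 8.72 CPM in EWS-OCT4 libraries, against 2.46, 3.43 and 2.86 CPM in EGFP libraries. It was 4.91-fold higher (log2 fold change 2.30, SE 0.32, adjusted p = 0.00013), with replicate 3 the lowest EWS-OCT4 library. Its promoter is 1 of the 2 with an octamer shown above. Sfrp5 was not called, with 19, 8 and 19 counts in EWS-OCT4 libraries and 2, 22 and 11 in EGFP libraries (log2 fold change 0.75, SE 0.70, adjusted p = 0.364), and without EGFP replicate 2 its log2 fold change was 1.59 (adjusted p = 0.114, within a range of 0.114 to 0.739 over 15 alternatives). Sfrp1 lies on chromosome 8 (23411502 to 23449632, plus strand) and Sfrp2 on chromosome 3 (83766321 to 83774316, plus strand).

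Dkk1, which blocks the LRP co-receptors and is itself induced by WNT signalling, was lower in the EWS-OCT4 line. It had 1, 0 and 0 counts in EWS-OCT4 libraries and 90, 73 and 246 counts in EGFP libraries, of which replicate 3 is the highest. The depth-scaled ratio was 319 in favour of the EGFP line (exact 95% interval 56.9 to 12633), with adjusted p = 2.3e-05. Without EWS-OCT4 replicate 1, which held the count, Dkk1 was at least 35.1-fold lower. The ratio was 198 without EGFP replicate 3 (interval 35.0 to 7861) and 206 without EWS-OCT4 replicate 3 (interval 36.7 to 8152). Dkk3, a divergent member of the Dickkopf family, was not called, at 2.69 ± 1.07 CPM in the EWS-OCT4 line and 2.19 ± 0.858 CPM in the EGFP line (SD, n = 3 each; adjusted p = 0.604). Wif1, a secreted protein that binds WNT, was not tested, and 23 of its 25 EWS-OCT4 counts were in replicate 1.

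The TCF/LEF factors gave 1 call in each direction. Tcf7l1, the TCF known as a repressor in mouse embryonic stem cells, stood at 217, 197 and 238 CPM in EWS-OCT4 libraries and 464, 464 and 495 CPM in EGFP libraries. It was 2.18-fold lower without overlap (log2 fold change -1.12, SE 0.12, adjusted p = 1.5e-05). An exon of Gm15401, which had 42 to 66 counts in EWS-OCT4 libraries and 122 to 127 in EGFP libraries, overlaps Tcf7l1 on the opposite strand. Tcf7l2, known as the main TCF of the intestine, stood at 119.8, 120.5 and 145 CPM in EWS-OCT4 libraries, against 80.5, 85.3 and 108 CPM in EGFP libraries. It was higher by a log2 fold change of 0.49 (SE 0.15, adjusted p = 0.0142), with no overlap and with replicate 3 the highest library of each line. The call was lost without EGFP replicate 1 (adjusted p = 0.0726), without EGFP replicate 2 (0.0637) and against a 1.5-fold change (0.633), within a range of 4.2e-06 to 0.633 over 15 alternatives. Tcf7 was at 1.52 ± 0.0475 CPM in the EWS-OCT4 line and 1.55 ± 0.447 CPM in the EGFP line (SD, n = 3 each; adjusted p = 0.959). Lef1, a factor that often acts as an activator, was not tested, with 6, 5 and 4 counts in EWS-OCT4 libraries, all below the 30, 23 and 11 in EGFP libraries.

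Target genes, whose transcription is a common readout of β-catenin signalling, showed 1 call among 3 tested. Axin2, a scaffold of the destruction complex that is induced as feedback, was at 1.11, 0.738 and 0.252 CPM in EWS-OCT4 libraries and 0.894, 0.841 and 2.27 CPM in EGFP libraries. The groups overlap and it was not called (log2 fold change -0.95, SE 0.65, adjusted p = 0.219), and its log2 fold change was -0.32 without EGFP replicate 3 and 0.11 in the libraries numbered 1 and 2 alone. Nkd1, a feedback inhibitor that binds Dishevelled, was not called either, at 5.11 ± 2.48 CPM in the EWS-OCT4 line and 4.19 ± 0.998 CPM in the EGFP line (SD, n = 3 each; adjusted p = 0.555). Cdx1, a homeobox gene that WNT induces in the mouse embryo, stood at 4.98, 6.09 and 4.95 CPM in EWS-OCT4 libraries, against 0.670, 0.701 and 3.38 CPM in EGFP libraries. It was higher by 1.73 on the log2 scale (SE 0.57, adjusted p = 0.0217), and by 2.94 without EGFP replicate 3, the library nearest to the EWS-OCT4 values. The call of Cdx1 was lost without EWS-OCT4 replicate 2 (adjusted p = 0.0590), EGFP replicate 1 (0.0722) and EGFP replicate 2 (0.0732), within a range of 2.1e-05 to 0.0732 over 15 alternatives. Sp5, a transcription factor and direct target, was not tested, with 2, 7 and 2 counts in EWS-OCT4 libraries and 0, 4 and 4 in EGFP libraries.

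**Figure D4:**
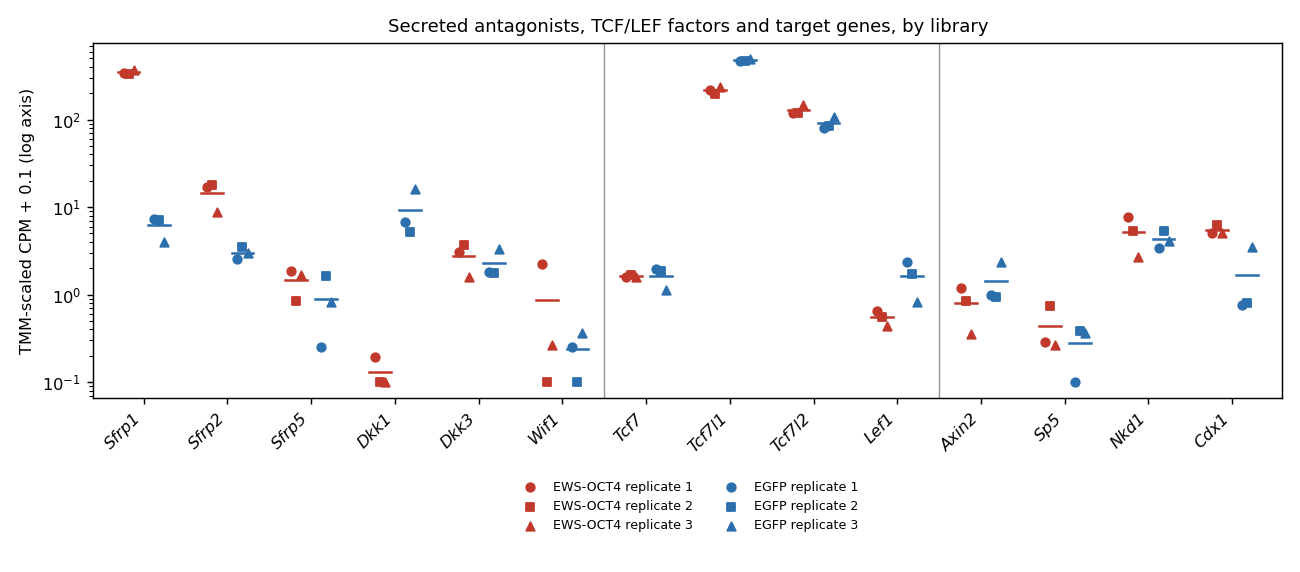
Level of each secreted antagonist, TCF/LEF factor and target gene in TMM-scaled CPM plus 0.1 (vertical log axis) in EWS-OCT4 libraries (red, left) and EGFP libraries (blue, right), with marker shapes for replicate numbers and lines for means. Sfrp1 and Sfrp2 are higher and Dkk1 and Tcf7l1 lower in the EWS-OCT4 line, while Axin2 and Nkd1 overlap between the lines.

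Another 93 genes of the pathway, listed by role, were read from the same fit. Of these, 66 were tested, 23 were higher, 26 were lower and 17 did not pass, so 74.2% were called, against 67.4% of all tested genes, with a median log2 fold change of 0.05. Tested against a 1.5-fold change, 17 were higher and 17 lower, where 47.5% of all tested genes were called. Of the 19 β-catenin and destruction complex genes, 10 were lower, 2 were higher and 7 did not pass, with a median log2 fold change of -0.56, where 34.1% of all tested genes were lower and 33.3% higher. Ctnnb1, which encodes β-catenin and was named after its values were seen, stood at 704, 704 and 778 CPM in EWS-OCT4 libraries and 1082, 1089 and 1142 CPM in EGFP libraries (log2 fold change -0.60, SE 0.11, adjusted p = 0.00057). The kinase genes Gsk3b and Csnk1d, whose products phosphorylate β-catenin or its partners, were lower by log2 fold changes of -1.35 (SE 0.11) and -1.10 (SE 0.12). Amer1, a membrane partner of APC, was higher by 2.18 (SE 0.26) and Tnks2, a tankyrase that marks Axin for degradation, by 0.71 (SE 0.12). Against a 1.5-fold change, neither Ctnnb1 (adjusted p = 0.339) nor Tnks2 (adjusted p = 0.101) was called.

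Receptors and antagonists outside the main set also split. Ptk7 and Ror2, receptors of β-catenin-independent WNT signalling, were higher, Ptk7 at 40.0, 51.4 and 13.8 CPM in EWS-OCT4 libraries against 0.894, 1.61 and 2.60 CPM in EGFP libraries, and Ror2 at 18.6, 23.8 and 23.9 CPM in EWS-OCT4 libraries against 4.47, 2.66 and 2.99 CPM in EGFP libraries. Kremen1, a receptor that acts with Dickkopf proteins, was lower, at 6.82, 8.76 and 4.53 CPM in EWS-OCT4 libraries against 69.2, 66.7 and 50.2 CPM in EGFP libraries. None of these 3 genes overlapped between the lines. Ryk, a tyrosine-kinase-like WNT receptor, was lower by a log2 fold change of -0.60 (SE 0.23, adjusted p = 0.0377), a call that was lost without any 1 of the EGFP libraries (adjusted p from 0.0791 to 0.0913), with no filter (0.0514) and against a 1.5-fold change (0.373). Dkkl1, a Dickkopf-like secreted protein, stood at 4.70, 4.71 and 6.37 CPM in EWS-OCT4 libraries and 404, 416 and 361 CPM in EGFP libraries, 74.5-fold lower (log2 fold change -6.22, SE 0.17, adjusted p = 7.5e-09). The called members among other antagonists that were higher, named after their values were seen, were Sfrp4 and Notum. Sfrp4 had 39, 16 and 30 counts in EWS-OCT4 libraries and none in EGFP libraries, at least 12.1-fold higher against the floor. Notum, an enzyme that removes the lipid from WNT, overlapped between the lines, and its call (adjusted p = 0.0423) was lost in 8 of 15 alternatives, which gave 1.7e-05 to 0.170. The single tested gene among the other ligands, Rspo1, encodes an R-spondin and was higher (it too was named with its values known), with 37, 46 and 34 counts in EWS-OCT4 libraries and 5, 1 and 0 in EGFP libraries. Its log2 fold change was 4.54 (SE 0.74, adjusted p = 0.00035), 6.32 without EGFP replicate 1 and 3.94 without EGFP replicate 3.

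Dishevelled and planar polarity genes gave 8 higher and 5 lower of 16, and nuclear cofactors 6 higher and 3 lower of 12 tested. Other targets gave 1 higher and 4 lower of 7 tested. For comparison, 67.4% of all tested genes were called, 33.3% higher and 34.1% lower. Dact3, which binds Dishevelled, and Celsr3, a planar polarity cadherin, were higher by 3.59 (SE 0.26) and 2.47 (SE 0.41) on the log2 scale. The Dishevelled gene Dvl3 and the formin gene Daam1, whose product links Dishevelled to the actin cytoskeleton, had log2 fold changes of -2.78 (SE 0.45) and -2.09 (SE 0.20). Among genes of the Groucho family, Tle4 was at 196 ± 23.3 CPM in the EWS-OCT4 line and 24.5 ± 3.77 CPM in the EGFP line. Aes was at 326 ± 35.3 CPM in the EWS-OCT4 line and 32.0 ± 9.94 CPM in the EGFP line. Tle3 was at 112 ± 22.6 CPM in the EWS-OCT4 line and 258 ± 12 CPM in the EGFP line (SD, n = 3 each). So Tle4 and Aes were higher and Tle3 was lower, and all 3 passed the test. Bcl9l, a β-catenin cofactor, was 11.1-fold lower, at 17.5, 17.5 and 22.9 CPM in EWS-OCT4 libraries and 223, 226 and 194 CPM in EGFP libraries. Ccnd1, the gene of cyclin D1, was higher, at 36.5 ± 6.78 CPM in the EWS-OCT4 line and 5.04 ± 0.678 CPM in the EGFP line. Cdx2, which is also a trophoblast marker, was lower, at 0.265 ± 0.0761 CPM in the EWS-OCT4 line and 28.0 ± 8.18 CPM in the EGFP line. Msx2, a homeobox gene, had a log2 fold change of -5.25 (SE 0.66), which was -6.72 without EWS-OCT4 replicate 1 and -4.63 without EWS-OCT4 replicate 3.

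**Figure D5:**
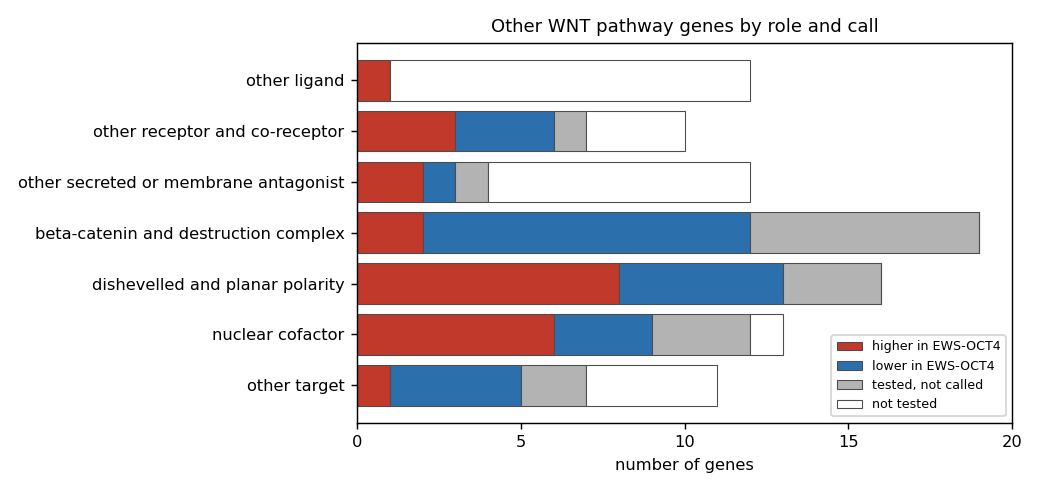
Number of other WNT pathway genes (horizontal axis) by role, split into higher in the EWS-OCT4 line (red), lower (blue), tested and not called (grey) and not tested (white). The β-catenin and destruction complex genes have 10 lower and 2 higher of 19, and 11 of the 12 other ligands were not tested.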

How the data were processed

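Per the labels' protocols, Trizol was used to extract RNA, of which 500 ng went into each Lexogen QuantSeq library of transcript 3′ ends. The submitters' processing notes name Bowtie2, edgeR and the build mm10. No source used here gives the counting tool, the annotation or whether strand was used. The authors deposited raw counts for each gene symbol, in 1 file for each library. Lines of the 35 repeated symbols were summed. Exons of 9 members overlap an opposite-strand gene, so tags of such pairs are uncertain.

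Samples were grouped by their titles. Counts of all symbols were filtered with filterByExpr (minimum count 10, total 15). TMM factors were then computed on the kept symbols and applied to library totals over all symbols. Kept symbols were tested in edgeR 4.0.16 by a robust quasi-likelihood F test, 2-sided, with Benjamini-Hochberg adjustment over all tested genes at 0.05. The biological coefficient of variation was 19.3%. SE is the log2 fold change divided by the square root of F. Where a line had no count, a floor of 3 counts per library gave a bound, and with 1 to 3 counts the ratio has an exact 95% interval. Both cover counting error only. On simulated data for 13246 genes the test recovered 77% of 2-fold and 100% of 4-fold changes, with 4.84% false calls. So large a share of changed genes as in these data was not simulated.

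Members and lists were chosen with earlier results of these data known. Values in every library are given for called members with a 2-fold change and 5 CPM or more in the higher line, for uncalled members at 20 CPM or more in a line, and for members at 0 in 1 line with 30 or more counts in the other. Of other pathway genes, up to 2 rises and 2 falls per role are named, without overlap and at 5 CPM or more. Further values were added for other members. Positions come from GENCODE M21 (GRCm38, the assembly of mm10). Promoters come from RefSeq (GRCm38.p6). Alternatives were leaving out each library, a replicate block, libraries 1 and 2 alone, DESeq2 size factors, library totals, Rn45s removed, no filter, DESeq2 1.42.0, limma-voom (limma 3.58.1) and a 1.5-fold threshold.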

Additional observations from a re-analysis of the deposited data

How the results depend on the processing

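All 18 called members kept their direction under the 15 alternatives. These members were picked by their calls, and each alternative reuses the same libraries or a part of them. Kept directions are therefore no independent support. The counts of members called stayed within 1.5 times, from 9 to 11 higher and from 8 to 11 lower. Over the same alternatives, the share of all tested genes that was called ranged from 47.5% to 75.6%. Tests of all symbols gave 9150 calls with DESeq2, 9090 with its size factors and 6399 against a 1.5-fold change, where the other pathway genes lower were 17, against 26. Replicate numbers were not taken as pairs, as no label says what they mark. Deviations from the mean of a line correlated between the lines at 0.04, 0.05 and 0.15 for the same number. For number 1 with 2 the values were 0.075 and 0.076, and for number 3 with 1 or 2 they were -0.10 to -0.09. Deviations cancel out within a line, so the negative values are tied to the positive one for number 3 and are no separate result. Number 3 was thus only weakly alike between the lines. Values this small cannot decide whether the numbers mark pairs. With the replicate block 10 members were higher and 9 lower, and 66.6% of all tested genes were called. Fzd8 was added (-1.15, adjusted p = 0.0492), and Notum was not called (adjusted p = 0.101). Signs of uncalled members turned when 1 library was left out, which gave log2 fold changes of -0.26 to 0.11 for Tcf7, -0.39 to 0.12 for Lrp5, -0.14 to 0.60 for Fzd4, -0.23 to 0.32 for Fzd3 and -0.11 to 0.60 for Nkd1. They also turned for Tcf7 (0.0059 with the block, 0.036 with limma-voom) and, in libraries 1 and 2, for Lrp5 (0.083) and Axin2 (0.11); the cause was not tested. With no filter all 43 members were tested, and Wnt7a, Wnt10a and Lef1 were also called. Depth limits the 11 untested members, which had 9 to 79 counts over the 6 libraries.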
